A study of Mus musculus with 4 samples.

Results

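The sites described here are the wild-type TopoIIa peaks that still had a peak when Brg1 was deleted. They are the autosomal wild-type peaks of at most 5000 bp that were overlapped by at least 1 bp by any peak of the Brg1 knockout list. This rule kept 706 of the 15672 autosomal wild-type peaks within the width limit, a share of 4.5% (exact 95% binomial interval 4.19 to 4.84%). Over all chromosomes and widths the share was 4.93%. The other 14966 peaks within the limit, which no knockout peak overlapped, served as the comparison and are called unshared. The 2 lists together held 21213 peaks, 16591 in the wild-type list and 4622 in the knockout list. A kept site was thus chosen by its readout in both libraries, and its having a knockout peak is not itself a result.

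The study used mouse embryonic stem cells of 1 line, derived from Brg1f/f-actinCreER mice, in which both Brg1 alleles can be cut out by Cre once tamoxifen activates it. All cells, controls included, carried a V5-tagged human TopoIIa introduced by infection, and their own mouse TopoIIa was knocked down by an sh construct. The knockout cells (Brg1-/-) received tamoxifen for 24 h and the wild-type cells ethanol for 24 h, on gelatin after growth on feeder cells. Both then spent 48 h in medium and were given 100 µM etoposide for 10 min before lysis. The series has 4 samples, a V5 immunoprecipitation and an input of each genotype, with 1 library per group. Only the peak lists of the V5 libraries were used here. There is no replicate, so no test between genotypes was possible and the intervals below cover counting error only, with peaks treated as independent. Tamoxifen exposure and loss of Brg1 came together in the same library and cannot be told apart, and the lists do not measure Brg1 itself.

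TopoIIa (topoisomerase IIα) cuts both strands of one DNA duplex, passes another duplex through the gap and reseals it, and so removes the tangles that replication and transcription leave between DNA molecules. Etoposide blocks the resealing step and leaves the enzyme covalently attached to the DNA, where it can be pulled down. Brg1 is the ATPase subunit of BAF (mSWI/SNF) complexes, which move and evict nucleosomes. The study's title concerns the help these complexes give TopoIIa in separating DNA, and the kept sites are those with a V5 peak in the library labelled Brg1-/- as well.

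The kept sites had higher wild-type scores than unshared peaks, and their knockout peaks had higher scores than knockout peaks that lay on no wild-type peak. The score is the authors' own value for each peak and can be compared only within its list. Across the 706 sites the wild-type score ran from 50.76 through a median of 170.465 to 3100, with an interquartile range of 108 to 288, and the unshared peaks had a median of 101.51. The best knockout score at the same sites ran from 50.38 through a median of 65.28 to 2000.49, with an interquartile range of 55.7 to 89.8. A knockout score of at least 100 was found at 150 sites (21.2%, exact 95% interval 18.3 to 24.5%), where 7.83% of all autosomal knockout peaks reached that score. Of the 3309 autosomal knockout peaks that lay on no wild-type peak, 149 (4.50%, 3.82 to 5.27%) did so, and their median score was 57.18. The knockout peaks on the kept sites numbered 737, with a median width of 143 bp, close to the 140 bp of those on no wild-type peak.

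The scores of the 2 lists were weakly related. Across the kept sites Spearman's rho between the wild-type score and the best knockout score was 0.28 (n = 706 sites, all from the same pair of libraries). The median knockout score stayed between 59.5 and 65.3 in deciles 1 to 9 of the wild-type score and was 85.4 in the top decile. The sites came from every decile, 15 from the lowest (scores 50 to 56.34) and 168 from the highest (292.61 to 3100). The share kept rises with the wild-type score, from 0.956% to 10.7% between these deciles. The matched values below therefore weight the unshared peaks to the kept sites' own distribution over the 10 score deciles. Shares kept by class of surroundings or position are not weighted unless said.

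**Figure D1:**
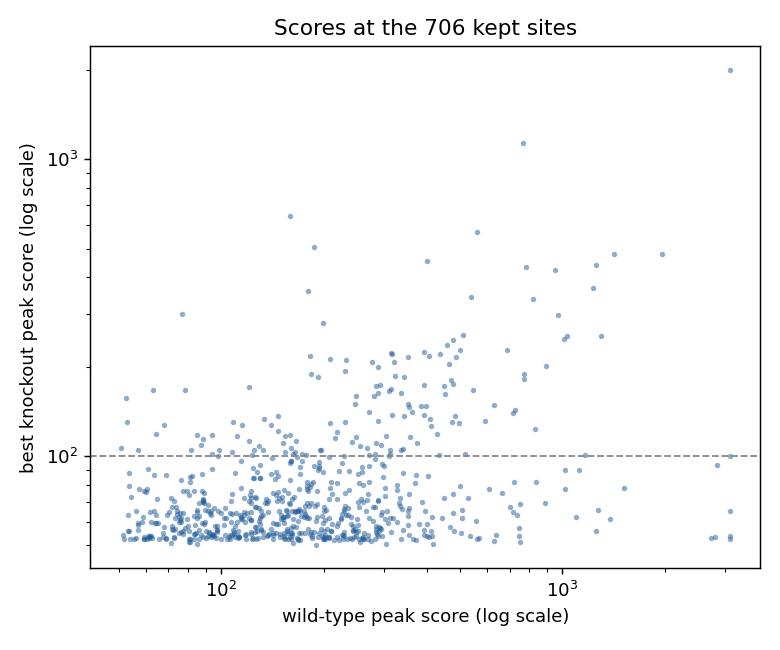
Wild-type peak score (x axis, log scale) against the score of the best overlapping knockout peak (y axis, log scale) for each of the 706 kept sites; 1 point is 1 site and the dashed line marks a knockout score of 100. The line is reached by 150 of the 706 points.

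Single sites show the spread. A site on chromosome 4 from 118219120 to 118222588 (3469 bp, mm9) had the highest knockout score of all kept sites and shared the highest wild-type score. It scored 3100 in the wild type and 2000.49 in the knockout, where the peak was 1740 bp wide and its centre 348.5 bp to the left of the wild-type centre. The other 4 kept sites with a wild-type score of 3100 had knockout scores between 52.46 and 99.92. One lay on chromosome 12 from 114661341 to 114664371, with a best knockout score of 99.92 and 2 knockout peaks. Another was on chromosome 13 from 42179288 to 42183677, with a knockout score of 54.02 and the nearest other wild-type peak 162 kb away. On chromosome 3 from 9449514 to 9452855 the knockout score was the lowest of the 5, 52.46, and the nearest wild-type neighbour was 197 kb away. The fifth, on chromosome 8 from 86646389 to 86651028, stood in a crowded stretch with 20 other wild-type peaks within 100 kb and scored 65.11 in the knockout. In all, 13 peaks within the width limit scored 3100 in the wild type, and 5 of them were kept. None scored higher, and the highest autosomal knockout score, on a wider wild-type peak, was 3100 too. This value may therefore be a ceiling of the score.

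Most of the next wild-type scores also came with knockout scores under 100. The site on chromosome 8 from 14305895 to 14308097 scored 2833.55 and 93.32, the site on chromosome 5 from 116258484 to 116261552 scored 2802.35 and 53.34, and the site on chromosome 2 from 51407881 to 51411737 scored 2733.61 and 53.11, wild type first. None of these 3 had another wild-type peak within 100 kb. On chromosome 16 from 11143027 to 11145237 both scores were high, 1958.5 and 480.79, and the centres lay 71 bp apart. A site on chromosome 10 from 43281243 to 43284441 (1516.86 and 78.17) completed the 10 highest.

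Ranked by knockout score, the 10 highest kept sites varied widely in wild-type score. One, on chromosome 9 from 35111394 to 35113675, scored 1136.91 in the knockout and 767.6 in the wild type. On chromosome 12 from 3108421 to 3111317 the knockout score was 645.12 and the wild-type score 159.22, under the median of the kept sites. On chromosome 12 from 75904327 to 75905976 the scores were 504.32 and 187.31. On chromosome 6 from 3150269 to 3152893 they were 566.84 and 563.44. The centre of this site lay 80.7 kb from the first called position of its chromosome. The first of the chromosome 12 sites itself began at the first called position there, and its nearest other wild-type peak was 197 kb away. The remaining 4 of the 10 highest, on chromosomes 16 (57389822 to 57393205), 6 (29696306 to 29700219), 12 (94814864 to 94816741) and 8 (86279224 to 86282126), scored 434.27 to 478.91 in the knockout and 399.64 to 1417.03 in the wild type. The inputs were not analysed here, so whether positions of this kind also collect reads without TopoIIa was not tested.

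On the kept sites the knockout peak was small and sat near the wild-type centre. At 701 of the 706 sites a knockout peak lay wholly inside the wild-type peak, 679 sites held 1 knockout peak and 27 held 2 or more, up to 5. The distance between the centres had a median of 222.5 bp and an interquartile range of 103 to 380 bp, and 90% of sites were within 553 bp. At 389 sites (55.1%, exact 95% interval 51.3 to 58.8%) the centres were within 250 bp of each other. The knockout centre lay to the left at 377 sites and to the right at 328 (53.5% left, 49.7 to 57.2%), a difference within counting error. Sites with a knockout score of at least 100 more often had a central knockout peak, 64.7% of 150 (56.5 to 72.3%) against 52.5% of 556 (48.3 to 56.7%), intervals that touch.

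**Figure D2:**
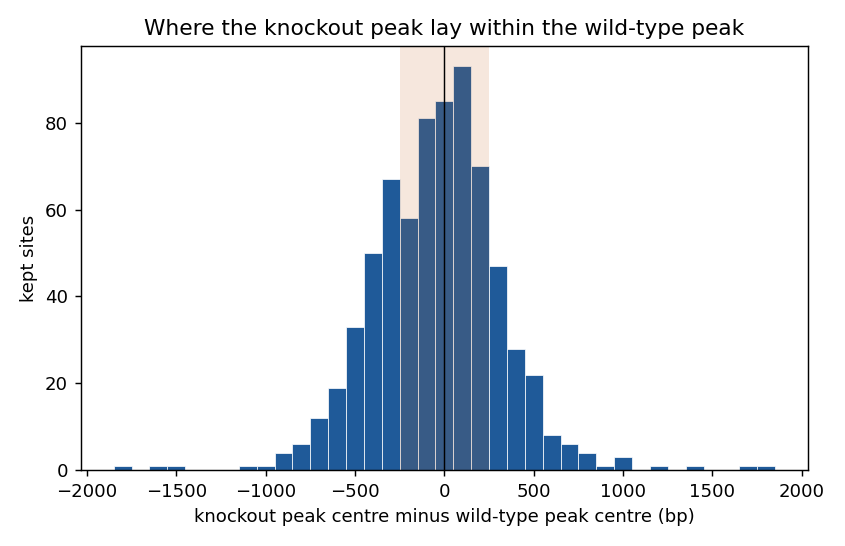
Histogram (100 bp bins) of the knockout peak centre minus the wild-type peak centre in bp (x axis) over the 706 kept sites (y axis, number of sites); where a site held several knockout peaks the nearest was taken, and the shading marks 250 bp to either side. Of the 706 sites 389 fall in the shaded part.

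Few peaks lay at the 1 bp overlap limit. The smallest overlap at any kept site was 56 bp, and the nearest knockout peak to an unshared peak was 85 bp away. The narrowest best knockout peak on these sites was itself 56 bp wide. Membership did depend on the knockout score: with a score of at least 60 required, 448 sites were kept. Only 46 unshared peaks had a knockout peak within 1 kb of an edge, and their median wild-type score was 106.79. At the width limit the widest kept site measured 4897 bp, and the narrowest overlapped peak beyond the limit 5156 bp. Of the 340 autosomal wild-type peaks over the limit, 34 were overlapped.

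Kept and unshared peaks of like score also differed in their surroundings: kept sites stood apart from other wild-type sites. No other wild-type peak lay within 100 kb of 291 of the 706 kept sites (41.2%, exact 95% interval 37.6 to 44.9%), while 24.6% of all peaks within the width limit were isolated in this sense. The matched value for unshared peaks was 25.6%, so the kept sites exceeded it by 15.6 percentage points, beyond counting error. The kept sites had a mean of 1.38 other wild-type peaks within 100 kb (SD 2.59, n = 706 sites) and a median of 1, against a matched mean of 3.50 and median of 2. The difference of the medians, -1, became 0 with a 3000 bp width limit, at wild-type scores of at least 100, and with matching within chromosomes or by width as well. From the edge of a kept site to the nearest other wild-type peak the median distance was 75.1 kb (exact interval of the median 67.0 to 82.9 kb), against a matched 34.4 kb. The upper quartile was 172 kb for kept and 92.1 kb for unshared peaks.

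This held across most of the range of wild-type strength. The isolated share was higher among kept than unshared peaks in 9 of 10 score deciles, the exception being decile 3, with 17.2% of 29 kept and 23.7% of 1537 unshared peaks. In deciles 2 (33.3% against 21.1%) and 6 (30% against 23.9%) the exact intervals of kept and unshared peaks overlapped, as they did in decile 3. The median distance to the nearest wild-type peak was longer for kept peaks in all 10 deciles. In the top decile it was 74.6 kb for kept and 38.5 kb for unshared peaks, and in the lowest decile, with only 15 kept sites, 189 kb and 20.4 kb. Within chromosomes, the isolated share of kept sites was above its matched value on 16 of 19 autosomes and below it on the other 3, chromosomes 1, 3 and 19. On chromosome 18, 23 of 36 kept sites (63.9%) were isolated against a matched 42.5%, and on chromosome 11, among the densest, 11 of 27 (40.7%) against 12.8%. On chromosome 19 only 1 of 17 was isolated. When unshared peaks were matched by score decile within each chromosome, the excess of isolated kept sites was 13.3 percentage points.

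**Figure D3:**
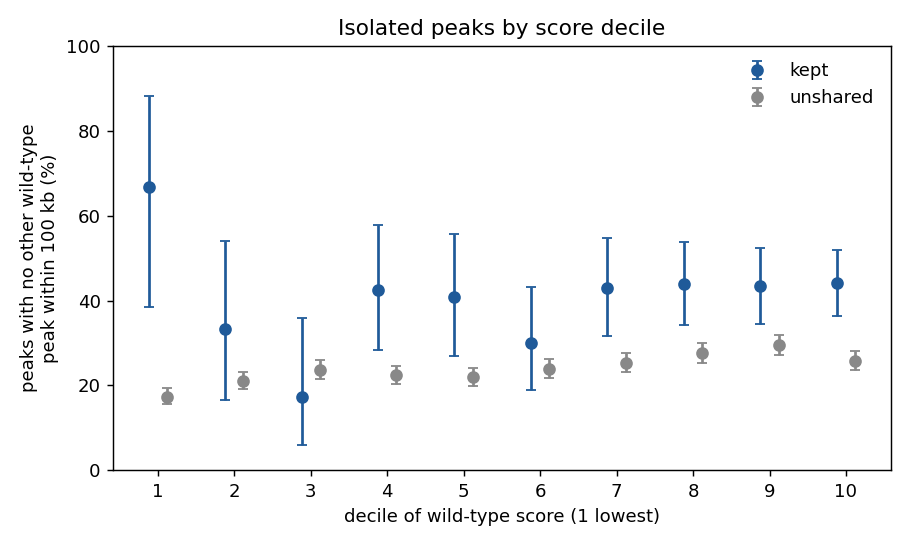
Share of peaks with no other wild-type peak within 100 kb (y axis, %) in each decile of wild-type score (x axis, 1 lowest) for kept and unshared peaks, with exact 95% intervals. The kept share is above the unshared share in 9 of the 10 deciles.

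Read the other way, the share of wild-type sites kept was lower where the neighbourhood was fuller. Of 3850 isolated peaks 7.56% were kept (exact 95% interval 6.74 to 8.44%). With 1 neighbour within 100 kb the share was 6.85% (6.02 to 7.75%), with 2 it was 4.86%, and with 3 to 4 it was 2.37%. Among 2636 peaks with 5 to 9 neighbours 20 were kept (0.759%, 0.464 to 1.17%), and among 1718 with 10 or more 17 were kept (0.990%, 0.577 to 1.58%). The last 2 classes did not differ beyond counting error. The share was lower in fuller neighbourhoods in both the upper and the lower 5 score deciles: from 10.5% in isolated peaks to 1.27% with 5 to 9 neighbours in the upper, and from 3.77% to 0.392% in the lower. By distance to the nearest wild-type peak the share kept rose from 0.652% (7 of 1074) at up to 1 kb to 8.43% (96 of 1139) at over 250 kb.

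Knockout peaks elsewhere in the neighbourhood, those on neighbouring wild-type peaks included, showed no such gradient. Leaving out knockout peaks on the peak itself, the mean number of knockout peaks within 100 kb was 0.299 around isolated wild-type peaks, between 0.280 and 0.362 with 1 to 9 neighbours and 0.371 with 10 or more. Among unshared peaks the share with such a knockout peak ranged from 20.1% to 27.6% over the 6 classes. Knockout peaks on no wild-type peak were not counted apart here, and in 1 Mb bins their number did differ with density, as given below. Without weighting by score, the share of sites kept differed 9.96-fold between the isolated class and that with 5 to 9 neighbours, the class with the lowest share. Weighted to the score deciles of all peaks within the width limit, these 2 shares were 7.06% and 0.878%. With 10 or more neighbours the weighted share was 1.11%.

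Counted by length of chromosome and not per wild-type peak, the number of kept sites was highest at intermediate density. Kept sites are themselves among the wild-type peaks counted in a bin, so few are possible where those are few. In 2386 full bins of 1 Mb, those with 1 to 2 wild-type peaks within the width limit had 0.136 kept sites per Mb (exact 95% Poisson interval 0.106 to 0.173) and those with 3 to 5 had 0.305 (0.271 to 0.343). Bins with 6 to 10 wild-type peaks had 0.441 (0.387 to 0.501), and those with 11 to 20 had 0.275 (0.211 to 0.352), although they offered more wild-type peaks to keep. The 118 bins with 21 or more held 3750 wild-type peaks and 35 kept sites, 0.297 per Mb (0.207 to 0.413). Per wild-type peak the share kept fell throughout. It was 8.43% in bins with 1 to 2 wild-type peaks, 7.86% with 3 to 5 and 6.10% with 6 to 10. In the 2 densest classes it was 1.87% and 0.933%. Knockout peaks on no wild-type peak were also fewer there, 0.965 and 1.01 per Mb in the 2 densest classes against 1.43 and 1.48 in bins with 6 to 10 and 3 to 5 wild-type peaks. The part of this lower knockout count in the lower number of kept sites was not tested.

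**Figure D4:**
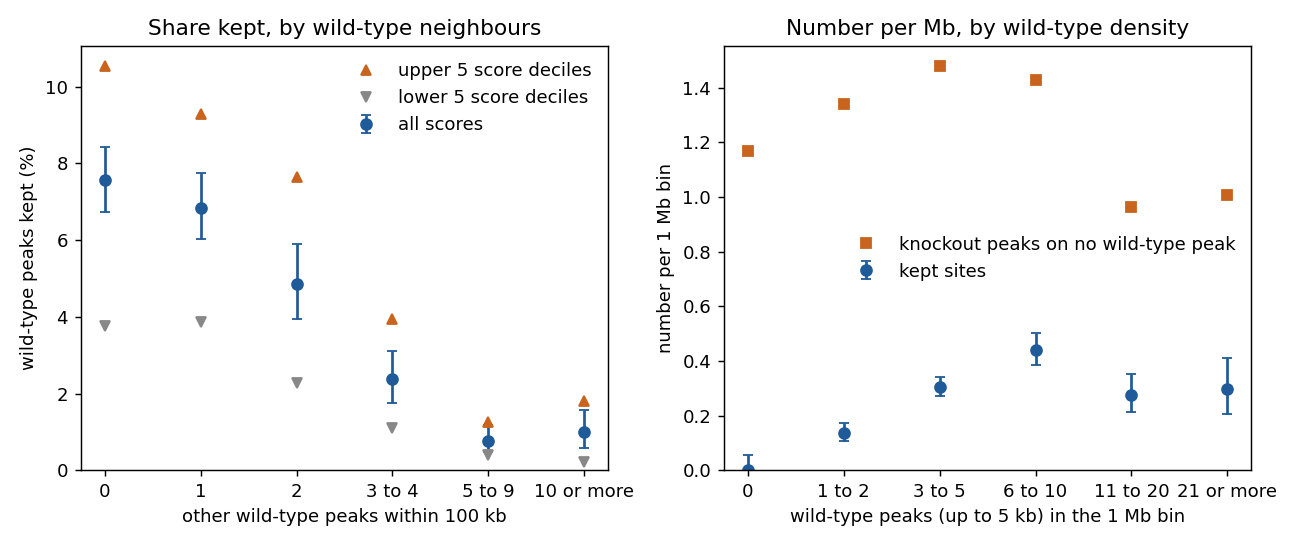
Left, share of wild-type peaks kept (y axis, %) by the number of other wild-type peaks within 100 kb (x axis), for all scores with exact 95% intervals and for the upper and lower 5 score deciles; right, kept sites (with exact Poisson 95% intervals) and knockout peaks on no wild-type peak per 1 Mb bin (y axis) by the number of wild-type peaks in the bin (x axis). The share falls from 7.56% to under 1%, and the number per Mb is highest, 0.441, in bins with 6 to 10 wild-type peaks.

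The most isolated kept sites lay about a megabase from any other wild-type peak. The farthest was on chromosome 17 from 90215311 to 90217490, 1269 kb from its nearest neighbour, with a wild-type score of 353.06 and a knockout score of 65.32. Next came chromosome 14 from 86597828 to 86600465 (1134 kb), which scored 317.57 in the wild type and 219.9 in the knockout. The site on chromosome 12 from 42240630 to 42243256 (1066 kb) had a higher score in the knockout list, 130.39, than in the wild-type list, 108.08, though the scales are not comparable. The others were on chromosome 13 from 87708230 to 87710940 (936 kb) and on chromosome 5 from 49034836 to 49035979 (899 kb).

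Only 37 kept sites had 5 or more wild-type neighbours within 100 kb, and the 5 most crowded were on chromosomes 8 and 10. On chromosome 8 from 73007781 to 73011592 and on chromosome 10 from 79515457 to 79517881, 23 other wild-type peaks lay within 100 kb. The former held its knockout peak (score 58.21) 1534 bp to the left of its centre, toward its edge, and the latter (score 52.46) within 57.5 bp of it. The next most crowded was the site of wild-type score 3100 on chromosome 8 described above. The other two were on chromosome 8 from 73955655 to 73958587 (18 neighbours, knockout score 96.31) and from 73187030 to 73189892 (17 neighbours, knockout score 66.26). None of these 5 had another kept site within 100 kb.

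The isolated kept sites were then set beside the others. The best knockout score had a median of 64.23 in the 291 isolated and 65.32 in the other 415 kept sites, and the wild-type score 178.44 and 164.08. A knockout centre within 250 bp of the wild-type centre was found at 55.0% of the isolated sites (49.1 to 60.8%) and 55.2% of the others (50.3 to 60.03%). Conversely, the isolated share was 41.1% in sites with a central knockout peak and 41.3% in those without, and 39.3% (31.5 to 47.6%) in the 150 sites with a knockout score of at least 100. These shares differed by less than counting error.

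Although short of wild-type neighbours, kept sites had more knockout peaks around them than unshared peaks did. A further knockout peak that lay on no part of the site was present within 100 kb of 236 kept sites (33.4%, exact 95% interval 29.95 to 37.04%), where 24.1% of all peaks within the width limit had one. The matched value was 23.8%, and the kept share was higher in 9 of 10 score deciles and above that of the unshared peaks on 15 of 19 autosomes. The share kept differed with both surroundings. Of the isolated wild-type peaks 10.4% (8.44 to 12.5%) were kept when a further knockout peak lay within 100 kb and 6.71% (5.83 to 7.67%) when none did. Of those with a wild-type neighbour the shares were 4.98% (4.21 to 5.84%) and 3.04% (2.69 to 3.42%). Of the 150 sites with a knockout score of at least 100, 23.3% (16.8 to 30.9%) had a further knockout peak, near the matched value, against 36.2% (32.2 to 40.3%) of the rest. No kept site lay in a dense knockout cluster, meaning 10 or more peaks that follow each other at 10 kb or less. The share of all knockout peaks in such clusters is not given here, so this is not read as a trait of the kept sites. Without the clusters, 33.3% of kept sites and a matched 23.8% had a further knockout peak.

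Kept sites were also somewhat more often next to each other. Another kept site lay within 100 kb of 58 (8.22%, 6.30 to 10.5%), while 5.81% of all peaks within the width limit had a kept site that near and the matched value for unshared peaks was 5.66%. This small excess was absent at wild-type scores of at least 100, where it was -0.17 percentage points. The nearest wild-type neighbour was itself kept for 57 sites (8.07%, 6.17 to 10.3%), against 4.42% of all peaks within the limit and a matched 4.49%. Among consecutive peaks within the width limit most kept sites stood singly: 606 did, 88 formed 44 runs of 2 consecutive peaks, and 12 formed 4 runs of 3. With 4.5% of peaks kept, most would stand singly in any case. The runs of 3 were on chromosome 16 from 15403569 to 15673357, with wild-type scores of 67.57 to 1095.61, on chromosome 1 from 17378717 to 17696430, on chromosome 3 from 59428668 to 59850426 and on chromosome 14 from 92204885 to 92376119. They spanned 171 to 422 kb, and no knockout score in them exceeded 92.2. Of the runs of 2 the one with the highest wild-type score, 1272.32, was on chromosome 8 from 119057191 to 119086695, with knockout scores of 66.06 and 74.73.

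The kept sites were slightly narrow for their strength. Their median width was 2201 bp (2145 to 2276 bp), above the 2148 bp of all unshared peaks and below the matched 2385 bp. Within deciles the kept median was lower in 9 of 10, for example 2589 against 2835.5 bp in the top decile. A wider peak is a larger target for a knockout peak. Matching by the number of wild-type neighbours as well as by score reduced the difference from -184 to -77 bp.

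Along the chromosome, kept sites were somewhat fewer toward the distal end than unshared peaks, by a margin that depended on the window and the matching. Mouse autosomes carry the centromere at the end where coordinates start. In the first 10 Mb from the first called peak there were 49 kept sites (6.94%, 5.18 to 9.07%), where 7% of all peaks within the width limit lay and the matched value was 7.07%, so no difference was detectable there. In the last 10 Mb there were 68 (9.63%, 7.56 to 12.1%), against 12.6% of all peaks and a matched 12.4%. With 5 Mb in place of 10 Mb the difference from the matched value went from -2.80 to -0.252 percentage points. When the unshared peaks were matched by the number of wild-type neighbours too, their value was 9.05%, below that of the kept sites. This matching was chosen after seeing the data, and the part of local density in the distal difference was not tested. With each chromosome cut into 10 equal parts, the share kept was 5.43% in the first, 3.88% in the second, 5.88% in the third and between 4.19% and 5.59% in the fourth to the eighth. It was 3.42% (2.65 to 4.34%) in the ninth and 3.43% (2.75 to 4.23%) in the last. Without matching, the median relative position was 0.511 for kept (exact interval 0.475 to 0.545) and 0.578 for unshared peaks (0.569 to 0.584). The scale runs from 0 at the first to 1 at the last called position.

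**Figure D5:**
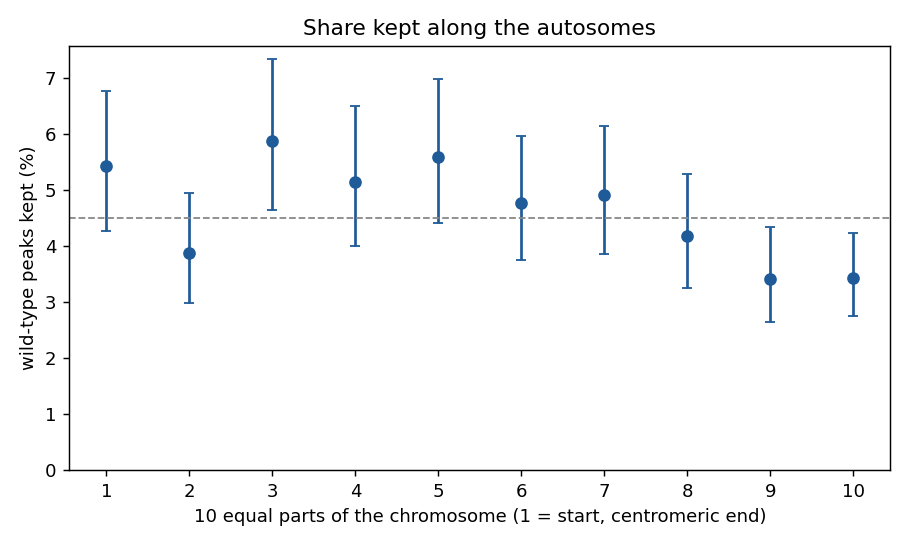
Share of wild-type peaks kept (y axis, %) in each of 10 equal parts of the autosomes from the centromeric start to the distal end (x axis), with exact 95% intervals; the dashed line is the share over all parts. The last 2 parts, at 3.42% and 3.43%, are the lowest, and the second (3.88%) and eighth (4.19%) also lie below the line.

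Every autosome had kept sites, from 17 on chromosomes 17 and 19 to 52 on chromosome 1. Per Mb between the first and last called position they ranged from 0.185 on chromosome 17 to 0.411 on chromosome 18, a narrower range than that of the share kept, which ran from 2.36% (1.38 to 3.75%) to 8.85% (6.27 to 12.04%) on the same chromosomes. The median knockout score at the kept sites lay between 59.68 on chromosome 18 and 74.485 on chromosome 13, apart from 90.32 on chromosome 17, which had 17 kept sites. Genes, promoters and sequence at the kept sites are not described, because the positions are in mm9 and no mm9 annotation or sequence was used here.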

How the data were processed

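Both V5 libraries were deposited as peak lists with chromosome, start, end, name and a score without a header; the authors' score was used only to rank, bin or filter peaks within its list. Bowtie 0.12.8, MACS 1.4.2 and mm9 are named, without roles, per the submitters' processing notes. For the control, the thresholds and the read depth, no value is given in those sources. The inputs were not analysed here. The reference tables were of another build and were not used.

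Peaks were joined by overlap of at least 1 bp, and positions are printed 1-based in mm9. Neighbours were counted centre to centre within 100 kb over autosomal wild-type peaks of any width, and distances run edge to edge. Matched values weight unshared peaks to the kept sites' counts in 10 equal score bins. Shares carry exact (Clopper-Pearson) intervals, medians exact order-statistic intervals and numbers per Mb exact Poisson intervals. Named sites are the 10 highest by wild-type and by knockout score, the 5 most crowded, the 5 most isolated and the longest runs. The runs of 3 and 1 run of 2 make up the 5 longest runs. The 1 Mb bins and the splits among kept sites were chosen after seeing the data. The members and all comparisons were chosen with earlier results of these data known. The overlap and matching code was tested on simulated data (Python 3.11.15, numpy 2.4.6, pandas 2.3.3, scipy 1.17.1, matplotlib 3.10.9).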

Additional observations from a re-analysis of the deposited data

How the results depend on the processing

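Each comparison was recomputed with other width, overlap and score limits, other bins and windows. Of 117 values so obtained, 96 fell inside the reported value's counting interval. A further 24 are not counted, since the width of 500 bp repeats the rule on centres and no kept site lay in a dense knockout cluster. The share kept (4.50%) became 3.89% when centres had to lie within 500 bp, or when 500 bp was used for the width of each peak, 6.68% at wild-type scores of at least 100 and 2.86% at knockout scores of at least 60. Differences from the matched value follow. The excess of isolated kept sites (15.6 points) was 20.6 at 50 kb and 1.27 at 500 kb, where few peaks of either kind are isolated. The difference in median neighbours (-1) became 0 with a 3000 bp width limit, at wild-type scores of at least 100, within chromosomes and with width quintiles, and -4 at 500 kb. The excess with another kept site nearby (2.55 points) became 0.630 at 50 kb and reversed to -0.17 at wild-type scores of at least 100. The excess with a further knockout peak (9.59 points) became 5.69 at knockout scores of at least 60. The difference in the last 10 Mb (-2.80 points) became -0.252 for 5 Mb and reversed to 0.583 with neighbours matched, and that in the first 10 Mb (-0.128) became 2.42 for 20 Mb. The width difference (-184 bp) became 53 bp without bins, -24 bp with width quintiles and -77 bp with neighbours matched. Central knockout peaks (55.1%) became 63.8% under either centre-based rule, and knockout scores of at least 100 (21.2%) became 33.5% once scores under 60 were dropped. Beyond what each setting removes, the cause was not tested. Matching by neighbours, the split by knockout position and the limit of 100 on the knockout score, under which the excess of isolated sites was 12.3 points, were chosen after seeing the data. Leaving out each chromosome in turn gave an excess of isolated sites of 14.7 to 17.04 points and kept all 171 values within the counting interval. Each of these sets shares most of its sites with the full set, so this is a weak check. No paired analysis was possible because there is 1 library per genotype, and no replicate could be left out. Depth is unknown, so an unshared peak is one with no knockout peak called at this depth and threshold.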
